A study of Mus musculus with 6 samples.

Results

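The Iqcf genes are a small family of testis-expressed genes that lie side by side on mouse chromosome 9, and they were examined in testes of mice lacking Ttll5 and of wild-type mice. The members were taken by name, as the probe sets of the deposited table that carry a single platform gene symbol belonging to the family. Of 4 named genes (Iqcf1, Iqcf3, Iqcf4 and Iqcf5), 2 had such probe sets, Iqcf3 with 8 and Iqcf4 with 3, so the members made up 2 of 15792 genes and 11 of 188590 probe sets. Iqcf1 and Iqcf5 had none and were not analysed on the arrays. The family was selected on the KO minus WT difference of Iqcf3 in these data, for the gene and for a single probe set. The values of Iqcf3 in that contrast are therefore a description, with no test, whereas Iqcf4 and the neighbouring genes were taken in by name and by position.

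An Iqcf protein carries an IQ motif, a short helical stretch to which calmodulin binds. Calmodulin is the calcium sensor that passes a rise in calcium on to kinases, phosphatases and other enzymes, and calcium entry into sperm precedes hyperactivated swimming and release of the acrosome, the enzyme-filled cap of the sperm head. Iqcf1 has been described as an acrosomal protein that binds calmodulin, while less is known of Iqcf3, Iqcf4 and Iqcf5. Ttll5, or Stamp, belongs to the tubulin tyrosine ligase-like enzymes and adds glutamate to tubulin.

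Total RNA of testes was measured on 6 Affymetrix exon arrays, 3 from Ttll5/Stamp KO mice and 3 from WT mice. Both groups were age-matched male littermates on 1 mixed background derived from C57BL/6, 129/SvEv and FVB/N. The animals' age, the part of Ttll5 that was deleted and whether an array held RNA of 1 animal or of a pool are not stated in the labels, and the p-values measure only the spread between these 6 samples. A probe set covers part of an exon or transcript, its level is a log2 value, and a gene's level is the mean over its probe sets. Array medians ran from 6.72 to 6.77. Ttll5, which checks the labels, had levels of 11.16, 11.14 and 11.16 in WT and 9.58, 9.49 and 9.53 in KO (limma difference -1.62, SE 0.066, adjusted p = 4.3e-05).

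Promoter sequences of the 4 members are shown first, because they cover Iqcf1 and Iqcf5 as well. RefSeq promoter windows on GRCm38.p6, each of 300 bases with 250 before and 50 after a transcript start, matched all 4 members by symbol. There were 6 such windows, 3 of them of Iqcf3, and 2 of these differ by 1 base in their start and hold the same site. In each window an 8-base match to TGACGTCA or to TGACATCA, searched on both strands, was found once. TGACGTCA is the cyclic AMP response element, which in spermatids is read by the activator CREM, and TGACATCA is the same word with another base in the middle. The 30 bases around each match are printed 5′ to 3′ on the gene's strand, with the matched word in capitals.
Iqcf1 (chr9:106499922-106499951, plus strand): cacagctgcccttaTGACATCAtgggccac
Iqcf3, distal start (chr9:106561662-106561691, minus strand): cacaggtatctttgTGACGTCAtagccagc
Iqcf3, proximal start (chr9:106544720-106544749, minus strand): cacagttggccttaTGACATCAtggtcatc
Iqcf5 (chr9:106514555-106514584, plus strand): cataggcacccttaTGACGTCAtcactcct
Iqcf4 (chr9:106571008-106571037, minus strand): cacagatggccttaTGACATCAtcaccggc

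The matched word began 31 bases before the start in Iqcf1, 51 and 49 bases before the distal and proximal starts of Iqcf3, and 56 bases before that of Iqcf4. In Iqcf5 it began 4 bases before the start and ran across it. Either word occurred in 5.36% of all 32851 promoter windows (1760), and in 6.13% of the genes that have a window. TGACGTCA alone occurred in 1.79% of windows and TGACATCA in 3.62%. The words were chosen after the family's sequences had been read, so their presence in all 4 is a description. The bases printed before the word are also alike in several members, so the 4 genes are not independent draws against those shares. Iqcf6, a further family gene on the same stretch of chromosome 9 that has no probe set here, had neither word in its window. The letters alone do not show a site in use.

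Of the 8 probe sets of Iqcf3, 1 was far lower in KO testes and the other 7 were nearly level between the groups. Probe set 5134845 read 12.77, 12.75 and 12.84 on the WT arrays, as against 9.49, 8.87 and 9.43 on those of KO. All 3 KO arrays lay far below all 3 WT arrays, and KO 2 was the lowest. The means were 12.78 ± 0.047 for WT and 9.26 ± 0.34 for KO (± SD, n = 3 per group), and KO minus WT was -3.52 on the log2 scale (SE 0.18), or 11.5-fold lower, which leaves 8.72% of the WT signal. This was the fifth lowest KO minus WT difference among all 188590 probe sets, behind a pair of Ttll5, 1 of Hemk1 and 1 without a gene symbol. The signal in KO was still well inside the range of the arrays. WT values lay at the 99.4th to 99.5th percentile of their arrays and KO values at the 73.6th to 79.9th, so that those of KO 1 and KO 3 lay above the upper quartile of their array and that of KO 2 just below it.

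**Figure D1:**
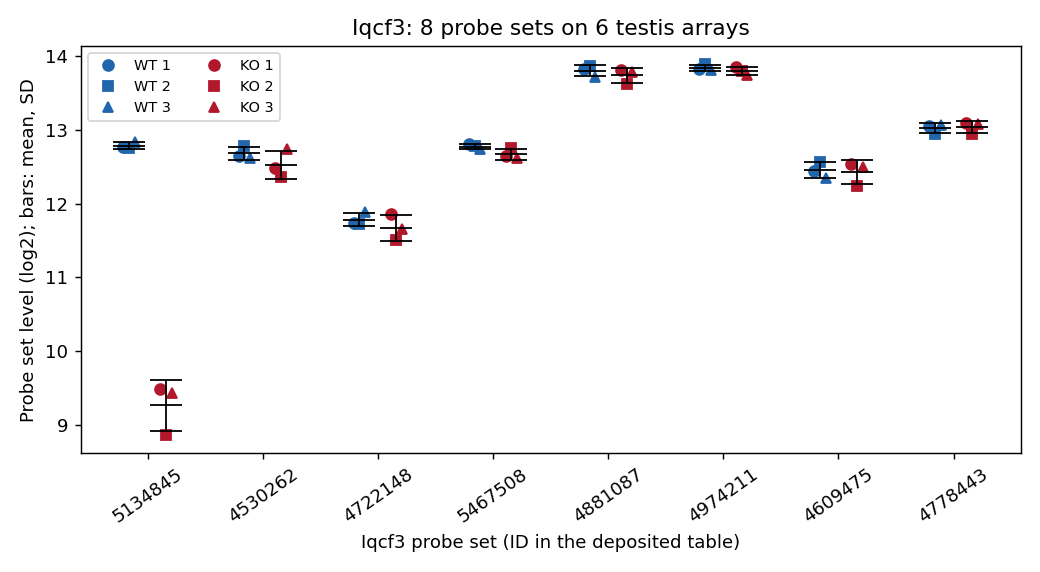
Level of each Iqcf3 probe set (log2, vertical axis) on the 6 arrays, WT in blue and KO in red, with horizontal marks at the group mean and bars of 1 SD (n = 3). Probe set 5134845 lies at 12.75 to 12.84 in WT and 8.87 to 9.49 in KO, while the 3 KO values of each of the other 7 probe sets overlap the WT values.

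The other Iqcf3 probe sets did not share that fall. Their differences ran from -0.15 to 0.02 with a median of -0.06, 6 lower and 1 higher in KO, and the groups overlapped in all 7. The most negative of them, 4530262, read 12.64, 12.78 and 12.61 in WT and 12.48, 12.36 and 12.74 in KO, where KO 3 lay above 2 of the WT arrays. Next came 4722148, with 11.74, 11.72 and 11.88 in WT against 11.86, 11.51 and 11.65 in KO. In both of these the KO arrays were more spread out than the WT arrays, with SDs of 0.19 and 0.18.

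Probe set 5467508 read 12.80, 12.78 and 12.73 in WT and 12.64, 12.75 and 12.61 in KO. For 4609475 the values were 12.44, 12.57 and 12.35 in WT and 12.54, 12.24 and 12.49 in KO. The single probe set with a higher mean in KO, 4778443, read 13.06, 12.94 and 13.07 in WT and 13.09, 12.94 and 13.08 in KO. None of these pairs of groups separated. The remaining pair of probe sets read 13.82, 13.86 and 13.72 against 13.80, 13.62 and 13.79 for 4881087, and 13.82, 13.88 and 13.81 against 13.85, 13.80 and 13.74 for 4974211 (WT first). Among the 7, KO 2 was the lowest of the 6 arrays in 4, KO 3 in 2 and WT 2 in 1.

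Within each array, the low probe set can be set against the mean of the other 7, which takes out anything that moves the whole gene or the whole array. That distance was -0.13, -0.19 and -0.04 for WT but -3.40, -3.88 and -3.44 for KO. It was narrow in WT (SD 0.071) and wider in KO (SD 0.26), and the groups were apart by -3.45. Among probe sets of genes with 3 or more, this was the third lowest such distance between the groups, after the pair of Ttll5, with the leading Hemk1 probe set next at an equal value of -3.45.

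As a whole gene, Iqcf3 measured 12.89, 12.91 and 12.88 on the WT arrays against 12.47, 12.26 and 12.44 on the KO arrays. Every KO array lay below every WT array, and the difference was -0.50 (SE 0.078), which is 70.7% of the WT level. Probe set 5134845 by itself supplied -0.44 of it, or 88%. Without it the gene measured 12.90, 12.93 and 12.88 in WT against 12.89, 12.74 and 12.87 in KO, where KO 1 lay above WT 3, with a difference of -0.07 (SE 0.072). The median of the 8 probe sets in place of their mean gave -0.18. The exon or transcript under the low probe set is not named by the tables used. RefSeq lists 2 well-separated starts for Iqcf3, and Iqcf5 lies inside the span of Iqcf3 on the opposite strand.

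Iqcf4 was slightly lower in KO testes, by an amount that did not pass the test over all genes. Its level was 10.51, 10.70 and 10.68 in WT and 10.28, 10.42 and 10.43 in KO. The 3 KO arrays lay below the 3 WT arrays, though the highest KO and the lowest WT value were close. The means were 10.63 ± 0.10 and 10.38 ± 0.080 (SD, n = 3 per group), so that KO minus WT was -0.25 (SE 0.082, limma adjusted p = 0.71 over 15792 genes). The unadjusted limma interval at 95% ran from -0.44 to -0.07, or 73.5% to 95.6% of the WT level. Groups that do not overlap with KO below WT were found in 6.67% of all genes, and a lower KO level at an unadjusted p under 0.05 in 3.44%, and Iqcf4 is read against those shares. The direction was the same in all 15 alternative settings, at -0.21 to -0.31, and the adjusted p was 0.50 or higher in each.

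All 3 probe sets of Iqcf4 had lower means in KO, and none passed the limma test over all probe sets. On simulated arrays that test recovered 0% of shifts of 0.5 log2, as did the test for a departing probe set given last. The differences here were smaller, so the lack of a call says little about them. Probe set 5460579 read 10.55, 10.62 and 10.74 in WT and 9.98, 10.50 and 10.45 in KO, a difference of -0.33 (SE 0.17; limma adjusted p = 0.95). For 5069489 the values were 10.49, 10.52 and 10.66 against 10.20, 10.41 and 10.23, a difference of -0.28 (SE 0.12; limma adjusted p = 0.94). The groups did not overlap in either, as in 5.27% of all probe sets with KO below WT. In 4578376 they did, at 10.49, 10.95 and 10.65 for WT and 10.67, 10.34 and 10.60 for KO, a difference of -0.16 (SE 0.16; limma adjusted p = 0.98). KO 1 was the lowest array in the first pair and the highest KO array in the last. In the test for a probe set that departs from the rest of its gene, Iqcf4 did not pass (limma, Simes method, adjusted p = 1; limma's diffSplice, adjusted p = 0.99).

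**Figure D2:**
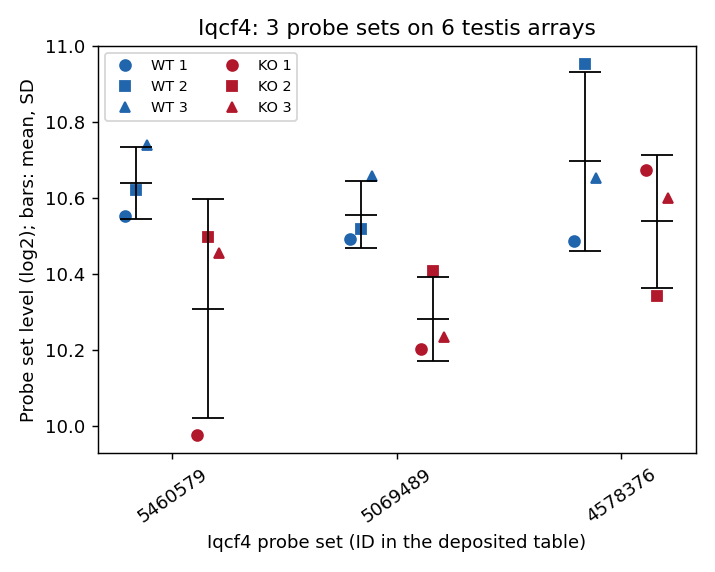
Level of each Iqcf4 probe set (log2, vertical axis) on the 6 arrays, WT in blue and KO in red, with marks at the group mean and bars of 1 SD (n = 3). In 5460579 and 5069489 all KO values lie below all WT values by a small margin, and in 4578376 the groups overlap. The vertical axis does not start at 0 and spans about a single log2 unit.

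Called probe sets and genes were rare on these arrays. Of 188590 probe sets, 72 (0.0382%) passed the limma test, 34 (0.018%) of them lower in KO, and 11 of 15792 genes (0.0697%) passed, 4 (0.0253%) lower. Of the 14152 genes with 3 or more probe sets, 12 (0.0848%) had a probe set that departed from the rest of its gene. Iqcf3 is 1 of those 12 and its low probe set 1 of the 34, but both follow from the contrast that chose it and nothing is read from them.

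Genes on both sides of the cluster were compared next, to ask whether the neighbours moved with it. In the RefSeq order of chromosome 9, the 10 nearest measured genes on each side numbered 20, and no other measured gene lay between the members. Abhd14a, a hydrolase of the alpha/beta fold family, was the 1 gene of the 20 that passed the limma test over all genes, as 0.0697% of all genes did, and it was lower in KO. Of the 20, 11 had lower and 9 higher values, with a median difference of -0.03 against a median near 0 (-0.003) over all genes. Groups with KO below WT did not overlap in 7 of the 20, against 6.67% of all genes, and those with KO above WT in 3, against 4.53%. At an unadjusted limma p under 0.05, 4 of the 20 were lower and 2 higher, against 3.44% and 2.6% of all genes. With 20 genes on each side, 26 of 40 had lower and 14 higher values, with a median difference of -0.08. The groups did not overlap in 17 of the 40 with KO below WT (42.5%) and in 3 with KO above WT. At an unadjusted limma p under 0.05, 11 of the 40 were lower and 2 higher, and 2 passed the adjusted test, Abhd14a and Pik3r4. These counts were not tested, and genes on the same arrays are not independent.

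Abhd14a lies 4 measured genes before the cluster. Its level was 9.17, 9.31 and 9.31 in WT against 8.17, 8.40 and 8.24 in KO, with the groups far apart. The difference was -0.99 (SE 0.086, limma adjusted p = 0.0048), which left 50.3% of the WT level. In all 7 of its probe sets the 3 KO values lay under the 3 WT values, as in 5.27% of all probe sets, with differences of -0.26 to -1.97. Of the 7, 1 passed the limma test over all probe sets, 5268216 at -1.97 (adjusted p = 0.0077). The smallest difference, -0.26 in 4670168, had a limma adjusted p of 0.93. In Iqcf3 the groups overlapped in all probe sets but the low one. The call of the gene was lost with the median of the probe sets in place of the mean (-0.72, limma adjusted p = 0.31). It was also lost without moderation of variances (adjusted p = 0.39), and over all 15 alternatives the adjusted p ran from 0.00088 to 0.39. The call held in 13 of the 15. Among these were the replicate block (limma adjusted p = 0.022) and the fits with each array left out (0.013 to 0.043). Beside it lies Abhd14b, a related hydrolase, with 6.38, 6.52 and 6.35 in WT and 5.93, 6.03 and 5.95 in KO, a difference of -0.45 that did not pass (SE 0.077, limma adjusted p = 0.21).

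The first measured gene on each side of the named members had higher values in KO. Rrp9, a protein of the U3 particle that processes ribosomal RNA, is the first measured gene before the cluster, with 8.26, 8.31 and 8.34 in WT against 8.62, 8.58 and 8.68 in KO. That is a difference of 0.32 (SE 0.068, limma adjusted p = 0.41). Tex264, a receptor for autophagy of the endoplasmic reticulum, is the first after it, with 8.42, 8.54 and 8.33 in WT against 8.64, 8.82 and 8.72 in KO, a difference of 0.30 (SE 0.084, limma adjusted p = 0.63). In both genes all KO arrays lay above all WT arrays, as in 4.53% of all genes, but neither passed the test. Parp3, an ADP-ribosyltransferase (-0.12), and Acy1, an aminoacylase (0.22), also lie before the cluster, and Rad54l2, a helicase-like protein that binds the androgen receptor (0.16), lies after it. Dcaf1, a substrate receptor of a ubiquitin ligase, differed by -0.0002, Rbm15b, an RNA-binding protein, by -0.05 and Manf, a secreted protein of the endoplasmic reticulum stress response, by -0.06. None of these 6 passed the limma test (adjusted p = 0.84 or higher), and among the 20 nearest genes the signs were mixed on both sides of the members.

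**Figure D3:**
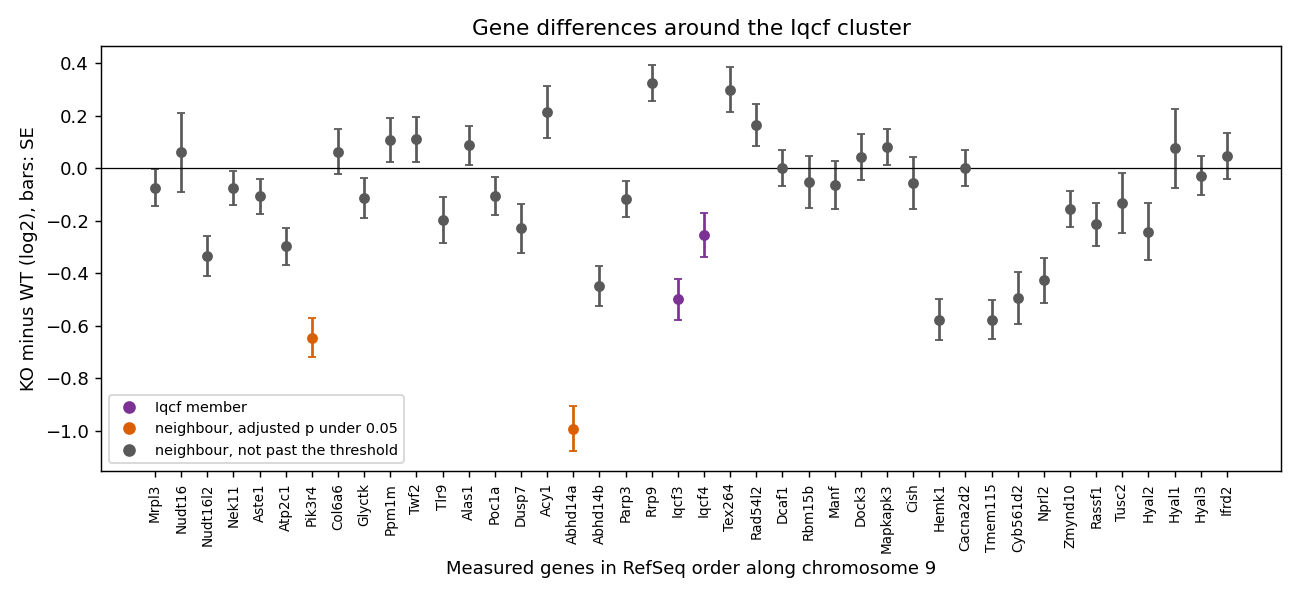
KO minus WT difference of each gene (log2, vertical axis, bars of 1 SE) for the 20 measured genes on each side of the Iqcf members, in RefSeq order along chromosome 9. Iqcf3 and Iqcf4 (purple) lie at -0.50 and -0.25 between Rrp9 at 0.32 and Tex264 at 0.30, and the 2 genes past the adjusted threshold (orange) are Abhd14a at -0.99 and Pik3r4 at -0.65.

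Called probe sets of the neighbours were all lower in KO, but most of these calls were lost when 1 array was left out. Such losses were not particular to the neighbours, since over all probe sets 72 calls became 13 to 37 with 1 array left out. Among the 301 probe sets of the 20 nearest genes, 4 passed the limma test (1.33%), all 4 lower in KO, against 0.018% of all probe sets. Over the 20 nearest genes on each side, 8 of 515 passed (1.55%), all 8 lower, and they belonged to 6 genes. These 6, named after their values were seen, are Abhd14a, Hemk1, Dock3, Tmem115, Pik3r4 and Atp2c1. With 1 array left out, the 4 became 0 without WT 2, WT 3, KO 1 or KO 2 and 2 without WT 1 or KO 3, and the 8 became 1 without WT 2, WT 3, KO 1 or KO 2, 4 without WT 1 and 3 without KO 3. At an unadjusted limma p under 0.05, 26 of the 301 probe sets (8.64%) and 70 of the 515 (13.6%) were lower in KO, against 2.74% of all probe sets. These shares were not tested, and neighbouring probe sets are not independent. Low probe sets also lay elsewhere on chromosome 9. Of 39 probe sets lower in KO by 2 log2 or more, 13 were of chromosome 9 genes, that of Iqcf3 included. Several of the 13 belonged to genes outside the 40 neighbours. Of the rest, 3 were of chromosome 12, 15 of other chromosomes and 8 had no single gene symbol. The share of all probe sets on chromosome 9 was not counted.

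Hemk1, a methyltransferase of peptide release factors that lies 9 measured genes after the cluster, had 2 of 11 probe sets past the threshold, both lower in KO. As a gene it differed by -0.58 and did not pass (SE 0.079, limma adjusted p = 0.069), with all KO arrays below all WT arrays, as in 6.67% of all genes. Its leading probe set, 5200689, read 7.64, 7.47 and 7.12 in WT and 3.67, 3.26 and 4.16 in KO, a difference of -3.71 (SE 0.25, limma adjusted p = 0.0090), while the median over its 11 probe sets was -0.20. The other, 4636919, read 8.91, 8.75 and 8.86 in WT and 7.27, 7.48 and 7.37 in KO, a difference of -1.47 (SE 0.12, limma adjusted p = 0.022), whereas the groups overlapped in all Iqcf3 probe sets but the low one. In 5200689 the KO values were under all array lower quartiles (4.59 to 4.67), where the Iqcf3 probe set stayed far above them. Hemk1 was also the 1 neighbour among the 20 in which a probe set departed from the rest of its gene (limma, Simes method, adjusted p = 0.013), as 0.0848% of the genes tested did. The call of 5200689 was lost without WT 2, WT 3, KO 1 or KO 2 (limma adjusted p = 0.052 to 0.084) and that of the departure without WT 1 as well (0.066 to 0.12). Both were also lost without moderation of variances (limma adjusted p = 0.45 for the probe set and 0.69 for the departure). With a replicate block the values were 0.22 and 0.29. The difference of 5200689 stayed between -3.50 and -3.95.

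In Dock3, a guanine nucleotide exchange factor, 1 of 59 probe sets passed at -2.16 (limma adjusted p = 0.038) and the median was 0.09. For Tmem115, a Golgi membrane protein, it was 1 of 8 at -1.87 (limma adjusted p = 0.033) with a median of -0.31. As a gene Tmem115 differed by -0.58 and did not pass (limma adjusted p = 0.061). On the other side, Pik3r4, which anchors the lipid kinase Vps34 in its complexes, had 1 of 11 at -2.05 (limma adjusted p = 0.047). Atp2c1, the Golgi calcium pump, had 2 of 32 at -2.86 and -2.48 (limma adjusted p = 0.0024 and 0.013), with a median of -0.06. Besides Hemk1, Atp2c1 was the only gene of the 40 with a departing probe set (limma, Simes method, adjusted p = 0.012). Pik3r4 is the second gene past the threshold in this stretch (-0.65, limma adjusted p = 0.030), a call lost whichever array was dropped (limma adjusted p = 0.070 to 0.17). It was also lost with the median of the probe sets (-0.38, limma adjusted p = 0.81) and without moderation of variances (0.39). A replicate block (0.14) and leaving out dim probe sets (0.055) lost it too, so 10 of 15 alternatives did.

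**Figure D4:**
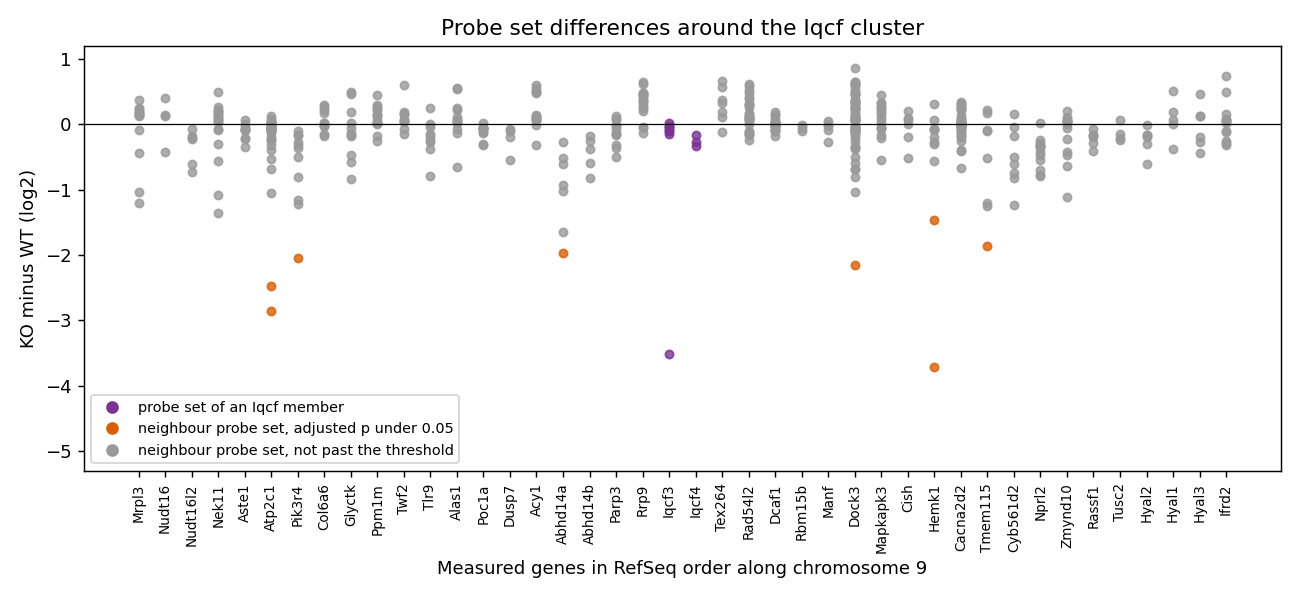
KO minus WT difference of every probe set (log2, vertical axis) of the same genes in the same order, with the 11 probe sets of Iqcf3 and Iqcf4 in purple, the 8 neighbour probe sets past the adjusted threshold in orange and the rest in grey. The low Iqcf3 probe set at -3.52 and the Hemk1 probe set at -3.71 lie lowest, and all 8 orange points lie below 0.

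Genes of other IQ-motif proteins, taken by name, did not pass the test. Of 24 listed, 19 were measured and 0 passed the limma test over all genes, with 1 lower and 0 higher at an unadjusted p under 0.05 (3.44% and 2.6% of all genes, 6.05% in either direction). Values were lower in 13 and higher in 6, with a median of -0.02, where 51.1% of all genes had lower values and their median was -0.003. Iqcc differed by -0.23 (SE 0.071, limma adjusted p = 0.67). Iqcg, a flagellar protein needed to form sperm tails, differed by -0.18 (limma adjusted p = 0.84), and Myo5c, a myosin with several IQ motifs, by -0.13 (limma adjusted p = 0.88).

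Calmodulin and the enzymes it governs gave no call either. Of 24 measured, 0 passed the limma test, 1 was lower and 0 higher at an unadjusted p under 0.05, and the median was -0.04, beside 3.44% lower and 2.6% higher at that p and a median of -0.003 over all genes. Values were lower in 17 of the 24 and higher in 7, where 51.1% of all genes had lower values. Ppp3r2, the testis form of the calcineurin regulatory subunit, differed by -0.21 (SE 0.081, limma adjusted p = 0.79), Camk1d by -0.15 and Camk2d, both calmodulin-dependent kinases, by 0.12. Among 16 acrosome and sperm-egg fusion genes 0 passed, and 1 was lower at an unadjusted limma p under 0.05 (3.44% of all genes). Values were lower in 13 of the 16 and higher in 3, with a median of -0.06, where 51.1% of all genes had lower values. That was Izumo1, the sperm protein that binds the egg's receptor, at -0.23 (SE 0.084, limma adjusted p = 0.77). Spaca1 and Spaca3, both acrosomal membrane proteins, differed by -0.14 each.

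Markers of testis cells were set beside these values. Spermatid markers, which include protamines and transition proteins, had a mean level of 12.11 to 12.22 in the WT arrays and 12.05 to 12.16 in the KO arrays, and 0 of the 14 measured fell below the arrays' lower quartiles, as the labelled tissue calls for. Of these 14, 13 had lower values in KO with a median of -0.08, where 51.1% of all genes had lower values. Of the 14, 0 passed the limma test (1 at an unadjusted p under 0.05, Tnp1 at -0.19, as 3.44% of all genes were lower), beside -0.25 for Iqcf4. In bulk testis fewer spermatids and less RNA per spermatid cannot be told apart. Leydig cell markers stood at 9.21 to 9.46 in WT and 9.59 to 9.71 in KO, all 10 measured being higher in KO, and macrophage markers at 6.11 to 6.22 and 6.29 to 6.30, with 8 of 12 higher. In both lists 0 passed the limma test over all genes, with 5 of 10 and 4 of 12 at an unadjusted p under 0.05, all higher, against 2.6% of all genes. Their medians were 0.22 and 0.13, against -0.003 over all genes. Their part in the Iqcf values was not tested. Medians in the other lists were -0.07 for 10 spermatocyte markers, -0.07 for 11 spermatogonia markers, 0.02 for 10 Sertoli cell markers and 0.05 for 6 peritubular myoid markers, with 0 past the limma threshold and 0 at an unadjusted p under 0.05 in each. Values were lower in 8 of the 10 spermatocyte and 8 of the 11 spermatogonia markers, where 51.1% of all genes had lower values. They were lower in 4 of the 10 Sertoli cell markers and 1 of the 6 peritubular myoid markers.

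Genes whose levels followed the members most closely over the 6 arrays were Cep43, a centriole protein (Pearson r = 0.995), Hemk1 (0.991) and Elp5, a subunit of the Elongator complex (0.991), for Iqcf3. For Iqcf4 they were Ccdc116 (0.995), Ngly1, a deglycosylating enzyme (0.991), and Hsdl1 (0.99). Hemk1 lies on chromosome 9 and the others do not. These correlations include the KO minus WT difference, which for Iqcf3 chose the family, so nothing is read from them. An r over 0.95 was reached by 34 genes with Iqcf3 and by 84 with Iqcf4. With each group's mean taken off, which leaves only the spread within groups, the closest were Dcaf8, Mtss1 and Pde10a for Iqcf3 (0.999, 0.999 and 0.998) and Sppl2a, Selenoo and Myoz1 for Iqcf4 (0.999, 0.997 and 0.996). None of these names recurs between the levels and the within-group values. Iqcf3 and Iqcf4 had a Pearson r of 0.793 with each other in levels and of -0.286 within groups. With 6 arrays shared by all genes, values of this size are reached by many genes.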

How the data were processed

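The authors deposited 1 table of log2 probe set values for 6 arrays. RMA and Partek 6.5 were used per the submitters' processing notes, which give no role or order; the build and subset of the annotation are not stated. RMA makes arrays alike and hides changes that most genes share. Values were used as deposited. Probe sets with several symbols (1322) or none (8105) named no gene. The contrast KO minus WT was fitted in limma 3.58.1 (R 4.3.3; lmFit, eBayes, two-sided, no covariates) over all genes and all probe sets, with Benjamini-Hochberg adjustment called at 0.05. With 3 against 3 arrays, no exact permutation test can go below p = 0.1. A departing probe set was tested as its value minus the mean of the gene's other probe sets, with Simes p-values per gene. Of the platform symbols, 13716 were current in RefSeq GRCm38.p6, 2039 matched an older name and 37 did not match; this table gave names and gene order only, since the array's build is unknown.

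Named were all members, 5 neighbours on each side, called neighbours, Ttll5, the 3 smallest p-values of each pathway list and the 3 closest genes by Pearson r. Members and lists were chosen with earlier results of these data known. On simulated arrays, shifts of 0.5 log2 were recovered in 80% of cases by the gene fit. The probe set fit and the departing probe set test each recovered 0% of them. At 1 log2 the shares were 98%, 28% and 34%, and no shift under 0.5 was simulated. False calls numbered 20, 9 and 8. The simulations shifted more genes and probe sets than were called here, some by 4 log2. That eases an adjusted threshold, so these shares can be higher than on the real arrays. There Hemk1 and Tmem115, each at -0.58 as a gene, were not called (limma adjusted p = 0.069 and 0.061). Alternatives covered gene summary, dim filters, normalization, moderation, array weights, a replicate block and leaving out each array.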

Additional observations from a re-analysis of the deposited data

How the results depend on the processing

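The Iqcf3 difference (-0.50) moved only with the gene summary, to -0.18 with the median of its probe sets and to -0.068 without probe set 5134845, its leading one; leaving out each array gave -0.43 to -0.54. That probe set stayed between -3.32 and -3.63 in all 13 alternatives, and Iqcf4 kept its direction and its side of the threshold in all 15. Called neighbours among the 20 nearest genes numbered 1, and 0 with the median summary or without moderation, 2 without dim genes, with trended and robust moderation, or with 20 genes on each side. Called genes numbered 11, and 5 with the median summary, 20 with trended and robust moderation and 2 without moderation. Called probe sets numbered 72, and 125 with trended and robust moderation, 3 without moderation and 13 to 37 when any 1 array was dropped (WT 1 dropped, 37; WT 2, 14; WT 3, 14; KO 1, 28; KO 2, 13; KO 3, 30). Called probe sets of the 20 nearest genes numbered 4, and 0 to 2 with 1 array dropped and 0 without moderation; those of the 20 genes on each side numbered 8, and 1 to 4 with 1 array dropped, 16 with trended and robust moderation and 0 without moderation. Genes with a departing probe set numbered 12, and 0 without moderation, 297 with diffSplice and 5 to 9 when any 1 array was dropped (WT 2, WT 3 or KO 2 dropped, 5 each; KO 1, 7; WT 1, 8). With the replicate block there were 7 called probe sets, 0 of them in the neighbours, 5 genes with a departing probe set and 9 called genes, and Iqcf4 stood at -0.25 (limma adjusted p = 0.63). Same-numbered arrays deviated together with correlations of -0.17, 0.07 and 0.18, and 2 of the 6 arrays correlated best with their own number. With 3 arrays per group, these values cannot show whether same-numbered arrays were paired. The labels give only the number. Alternatives for single probe sets, Hemk1, Pik3r4, Abhd14a and the neighbours' probe sets were added after seeing the data. Settings for Iqcf1 and Iqcf5 were not run, since neither has a probe set. The number of arrays limits the precision.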
